A study of Mus musculus with 4 samples.

Results

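The 10 genes described here encode CXCR4 and ACKR3, the receptors of the chemokine CXCL12, together with CXCL12 itself, 5 further chemokines (Cxcl1, Cxcl5, Ccl2, Ccl7 and Cx3cl1) and the cytokines IL-6 and LIF. They were taken by gene name from a table of 55267 entries, 1 entry for each gene, and all 10 were found. They were chosen on their levels and BMP6 responses in these same libraries, so their values are given as a description and without a test. RNA was sequenced from cultured adult muscle stem cells (MuSCs), the resident stem cells that rebuild skeletal muscle after injury. The question of the experiment was which genes change within 1 h of exposure to BMP6, a secreted bone morphogenetic protein.

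Both groups came from female mice, 9 weeks old, of the genotype C57BL/6N(Tg(Pax7-EGFP)Tajb), in which the Pax7 gene drives a green fluorescent reporter. Mononucleated muscle cells were cultured for 1 day, sorted for the reporter and cultured for 2 more days. The growth medium held 15% FBS, 2.5 ng/mL basic FGF and 10 ng/mL LIF, at 3% O2. The protein product of one of the 10 genes was thus part of the medium before the experiment. All cells then spent 6 h without serum, with 200 ng/mL of the soluble receptor BMPR-1A-Fc, which binds BMPs left in the medium. The BMP6 group (n = 2) received 100 ng/mL BMP6 for 1 h, and the control group (n = 2) received the vehicle alone, 4 mM HCl with 0.1% BSA. The labels give biological replicates 1 and 2 as batches, each with a BMP6 library and a control library, and how many mice entered each replicate is not given in the sources used here. These were sorted cells in short-term culture, away from the fiber and from the leukocytes of a muscle.

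Chemokines are small secreted proteins that direct cell movement through G protein-coupled receptors, and most are held near their source by glycosaminoglycans on the cell surface. CXCL12 signals through CXCR4, whereas ACKR3 binds the same ligand, recruits arrestin and removes CXCL12 from the surroundings. In muscle, CXCL12 and CXCR4 are known for guiding migrating muscle precursors into the limb, and injured muscle releases CCL2, CCL7, CXCL1 and CXCL5, which draw in monocytes and neutrophils. IL-6 and LIF act through receptors that share the subunit gp130 (Il6st) and through JAK kinases and STAT3, and LIF is used to keep muscle precursors in culture.

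Levels are in TPM, a share of all transcripts in a library (per 1000000) corrected for transcript length, so levels of different genes in a library can be compared. Differences are BMP6 minus control on the log2(TPM + 1) scale. On this scale the change of a gene at a low level is understated. The fold change for a limma call was taken on this scale, as a ratio in TPM + 1. Each library held 108 to 112 rebuilt reads in units of 1000000. Between 13002 and 13203 entries were at 1 TPM or more in a library. An entry was tested when its mean over the 4 libraries was at least 1 TPM, which 13128 entries did. In limma, 24 of these were called higher after BMP6 (0.183%), at a fold change of at least 2 and an adjusted p under 0.1, and 0 lower. Before adjustment (p under 0.05, fold change kept) the numbers were 36 and 1. The counts at an unadjusted p in the gene lists below did not keep the fold change, so they cannot be set against these. With voom on rebuilt reads, 18 were called higher and 0 lower. The median difference of all tested entries was 0.02. In bulk RNA, fewer cells of a type and less RNA per cell cannot be told apart.

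The cultures carried myogenic markers, and all 9 had a mean of at least 1 TPM. Myog, a regulator of muscle differentiation, led at 4400 to 5472 TPM, and the summed level of the 9 was 7373 to 8304 TPM. Pax7, the stem cell gene that drives the reporter, was the lowest of the 9, at 8.29 to 11.7 TPM. How far the cells had differentiated was not tested. The 12 leukocyte markers summed to 2.13 to 2.94 TPM. Cd68, a lysosomal protein of macrophages, was highest at up to 1.68 TPM, Ptprc reached at most 0.00618 TPM, and Ly6g and S100a8 were listed at 0 in every library. The 5 endothelial markers summed to 1.25 to 2.16 TPM, mostly from Tek at up to 1.87 TPM, with Kdr listed at 0. The 4 Schwann cell markers summed to at most 0.601 TPM. Markers of smooth muscle cells or pericytes summed to 7.12 to 9.53 TPM, with Pdgfrb highest at up to 4.93 TPM. Fibroblast markers, led by Col3a1 at up to 109 TPM, are given beside Cxcl12.

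To show what lies before the start of 3 genes that recur below, the RefSeq promoter windows of Cxcr4, Cxcl12 and Cxcl1 are printed 5′ to 3′ on the strand of the gene. Each is cut at the base before the deposited transcript start or further out. RefSeq lists them on GRCm38.p6, and each matched the GRCm39 genome, the build of the deposited files, exactly once. The same sets of letters were searched for in every window on both strands, and capitals mark the matches. For Cxcr4 these were to TATAAA, which the general transcription machinery binds near the start, and to GGGCGG, known as a GC box and bound by Sp1. For Cxcl12 they were to GGCGCC (bound by SMADs) and GGGCGG, and for Cxcl1 to GGGNNTTTCC (bound by NF-kB).
Cxcr4, chr1:128520037-128520286, minus strand: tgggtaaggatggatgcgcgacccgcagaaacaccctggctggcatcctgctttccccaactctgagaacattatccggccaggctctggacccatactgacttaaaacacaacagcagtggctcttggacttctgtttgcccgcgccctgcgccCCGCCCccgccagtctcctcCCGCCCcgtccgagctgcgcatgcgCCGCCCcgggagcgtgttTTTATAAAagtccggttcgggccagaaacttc
Cxcl12, chr6:117145246-117145495, plus strand: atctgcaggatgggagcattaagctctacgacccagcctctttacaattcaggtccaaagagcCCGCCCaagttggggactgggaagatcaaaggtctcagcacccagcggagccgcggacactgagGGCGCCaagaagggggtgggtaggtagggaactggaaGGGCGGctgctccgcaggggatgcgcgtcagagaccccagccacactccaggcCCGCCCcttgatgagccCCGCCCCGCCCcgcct
Cxcl1, chr5:91038854-91039099, plus strand: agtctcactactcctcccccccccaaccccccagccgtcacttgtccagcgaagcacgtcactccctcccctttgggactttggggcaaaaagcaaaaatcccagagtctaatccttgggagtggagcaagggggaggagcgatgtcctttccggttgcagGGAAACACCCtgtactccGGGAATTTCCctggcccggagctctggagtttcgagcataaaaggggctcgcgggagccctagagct

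The Cxcr4 window held TATAAA at 30 to 25 bases before the RefSeq start, overlapping TTTATA, the same letters on the other strand, and 3 GC boxes. It held 0 matches to GGCGCC and 0 to GGGNNTTTCC. TATAAA was found in 12.4% and GGGCGG in 32.7% of 32851 RefSeq promoter windows of 250 bases. The Cxcl12 window held 5 GC boxes, the last pair sharing a base, and GGCGCC at 123 to 118 bases before the start, letters that 9.59% of promoters hold. The Cx3cl1 window also held GGCGCC, at 35 to 30 bases before its RefSeq start, a place past the deposited transcript start. The Cxcl1 window held 2 matches to GGGNNTTTCC, at 89 to 80 and 71 to 62 bases before the start, against 1.41% of promoters with at least 1 match. The window of Il6 also held 1 such match, at 44 to 35 bases before its start, and Il6 and Lif each held TGANTCA (bound by AP-1), which 6.75% of promoters hold. The longer SMAD palindrome GTCTAGAC was in none of the 7 windows that matched and in 0.167% of all promoters. A match of letters is not a binding site shown here. Cxcl5, Ccl2 and Ccl7 had no window in the table.

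In vehicle-treated MuSCs, the 10 transcripts ranged from Cxcl12 at 14.3 ± 3.02 TPM to Lif at 0.129 ± 0.124 TPM (SD, n = 2 each). Cxcl12 and Ackr3, at 14.0 ± 2.33 TPM, were the most abundant and overlapped between libraries. They were followed by Ccl2 at 5.57 ± 0.557 TPM and Ccl7 at 3.80 ± 0.175 TPM, whose ranges were apart. Cxcl1 at 1.30 ± 0.710 TPM and Cxcr4 at 1.16 ± 0.221 TPM overlapped each other. Cx3cl1 at 0.597 ± 0.0182 TPM lay between Cxcr4 and Il6 at 0.285 ± 0.0772 TPM without overlap. The range of Il6 lay above that of Lif, and Cxcl5 at 0.258 ± 0.365 TPM overlapped both. Cxcl12 and Ackr3 stood near the middle of the tested entries, with 6311 and 6368 of these having a higher control mean, whereas 12729 did in the case of Cxcr4.

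**Figure D1:**
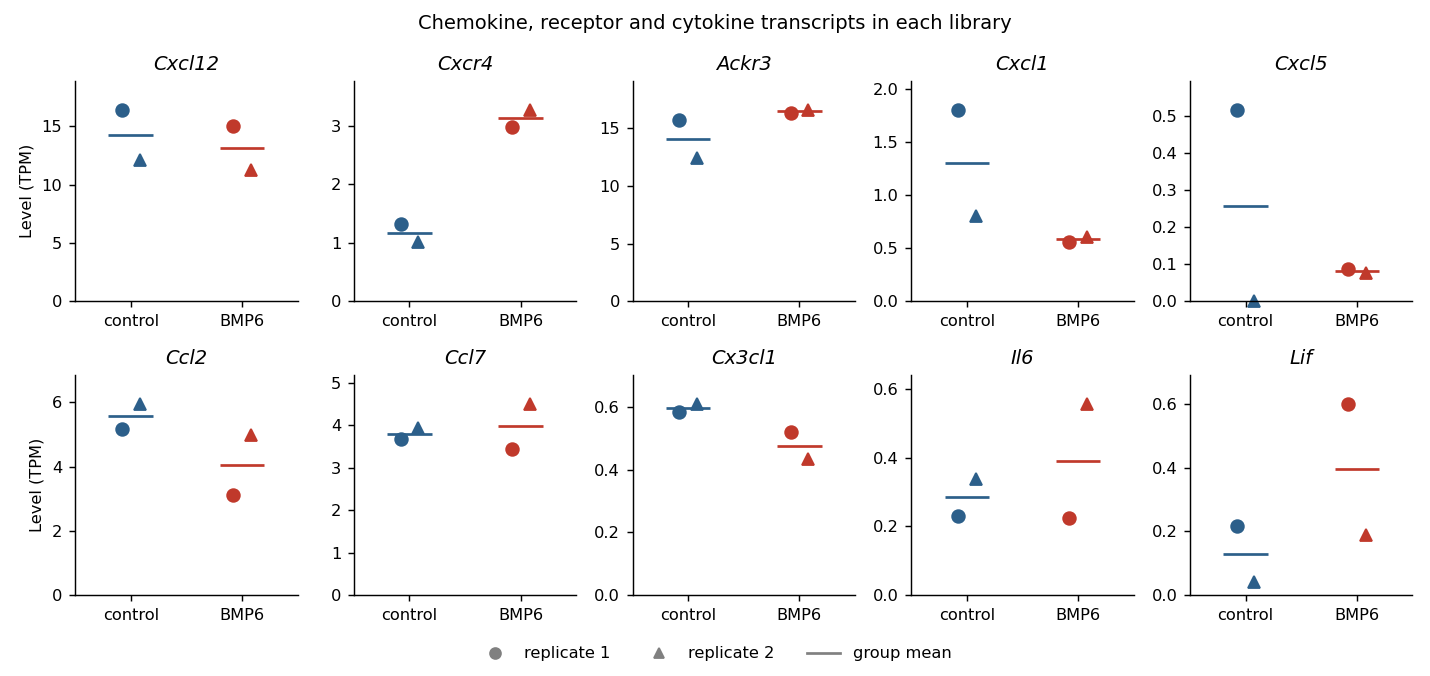
Level in TPM (vertical axis, from 0, a separate scale for each gene) of the 10 genes in the 2 control libraries (blue) and the 2 BMP6 libraries (red), with circles for replicate 1, triangles for replicate 2 and lines for group means. The BMP6 libraries lie above both controls for Cxcr4 and Ackr3, and below both for Cxcl1, Ccl2 and Cx3cl1.

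Of the 5 members that were tested entries (Cxcr4, Ackr3, Cxcl12, Ccl2 and Ccl7), 2 had both BMP6 libraries above both controls, where 16.6% of all tested entries did. In 1 of the 5 both BMP6 libraries were below both controls, against 11.6% of tested entries. Among the 5 members with a mean under 1 TPM, 0 lay above and 2 lay below. The shares were 11.8% and 12.3% of all 15728 entries at such levels and not at 0 throughout, these 5 included. The genes were picked on these same values, so nothing is read from the counts.

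Cxcr4, which lies on chromosome 1 from 128515936 to 128520027 on the minus strand of GRCm39, had the largest difference of the 10 on the log2(TPM + 1) scale, although with voom on rebuilt reads that of Lif was larger. The BMP6 libraries, replicate 1 first, had 2.98 and 3.27 TPM, and the control libraries, in the same order, had 1.32 and 1.01 TPM. Values below keep this order. The BMP6 libraries were both above the controls, and the replicates of a treatment were close to each other. The ratio of group means was 2.69. On the log2(TPM + 1) scale the difference was 0.94, with 0.78 within the replicate 1 pair and 1.09 within the replicate 2 pair. Replicates of the same treatment differed by -0.10 in the BMP6 group and 0.21 in the control group (replicate 1 minus replicate 2). The difference of 0.94 stood just under a 2-fold change in TPM + 1, the size needed for calls, while the ratio in TPM was 2.69. A larger difference was found in 49 tested entries. Its size depends on the scale at this low level, from 0.40 with a pseudocount of 5 to 1.42 with voom on rebuilt reads.

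The Cxcr4 values rested on 337 and 354 rebuilt reads in the BMP6 libraries and 152 and 112 in the control libraries. The deposited files hold 1 Cxcr4 transcript of 1805 bases with 2 exons, and no near-identical copy of it was found among other genes. Mean coverage of the 1703-base exon was 19.5 and 20.6 after BMP6 and 8.86 and 6.43 in controls. Mean coverage of the 102-base exon at the 5′ end was 4.88 and 4.14 after BMP6 and 0.833 and 2.21 in controls. In each exon both BMP6 libraries were above both controls, and in every library the short exon was covered less deeply than the long one.

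Ackr3, on chromosome 1 at 90131702 to 90144473, was at 16.3 and 16.6 TPM after BMP6 and at 15.7 and 12.4 TPM in controls. Both BMP6 libraries lay above both controls, but control replicate 1 was close to them. The difference was 0.23, with 0.06 and 0.40 within pairs, and the control libraries differed from each other by 0.32. Without control replicate 2 the difference was 0.07. The difference between treatments was thus smaller than the gap between the controls. The level of Ackr3 was 11.9 and 12.3 times that of Cxcr4 in controls and 5.47 and 5.07 times after BMP6.

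Cxcl12, on chromosome 6 at 117145496 to 117158328, was at 15.0 and 11.3 TPM after BMP6 and at 16.4 and 12.2 TPM in controls. The groups overlapped, and in both groups replicate 1 was higher. Replicate 1 exceeded replicate 2 by 0.39 in the BMP6 group and 0.41 in the control group, while BMP6 and control differed by -0.12 and -0.10 within pairs. The difference of group means was 0.08 without BMP6 replicate 2 and 0.09 without control replicate 1. Leaving out a library breaks a pair, so these values also carry the gap between replicates. They do not show a change of direction within pairs. Within a library, Cxcl12 was at 0.679 to 1.05 times the level of Ackr3.

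Some myogenic and fibroblast markers were higher in replicate 1 of both groups, as Cxcl12 was. Of the tested leukocyte (1), endothelial (1) and smooth muscle or pericyte (2) markers, 0 were. Of the 9 myogenic markers, 6 were higher in replicate 1 of both groups, although their summed level was lower there. Fibroblast markers did so as well. The 6 markers summed to 134 and 90.5 TPM after BMP6 and to 137 and 104 TPM in controls. Of these, 4 had a mean of at least 1 TPM, and all 4 were higher in replicate 1 of both groups. Over all tested entries, too, the first principal component (54.3% of the variance) separated the replicate numbers. The share of tested entries that were higher in replicate 1 of both groups is not given here, so nothing is read from the marker counts. None of the 6 was at 0, although Pdgfra, a receptor that defines muscle-resident fibroblasts, was at most 0.164 TPM. The part of the makeup of the cultures in the level of Cxcl12 was not tested.

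Cxcl12 is made in forms that differ at the carboxyl end. The transcript that codes for 89 residues, the alpha form, took 77.4% to 81.7% of Cxcl12 TPM over the 4 libraries. The 93-residue beta form took 16.1% to 20.6%, and the 119-residue gamma form, which carries an extended basic tail, took 2.03% to 3.06%. The alpha form was at 12.3 and 8.99 TPM after BMP6 and at 13.2 and 9.41 TPM in controls, with replicate 1 again higher in both groups. The beta form was at 2.41 and 1.92 TPM after BMP6 and at 2.80 and 2.51 TPM in controls, with both BMP6 libraries below both controls. For the alpha and gamma forms the groups overlapped, and the order of the forms was the same in every library.

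**Figure D2:**
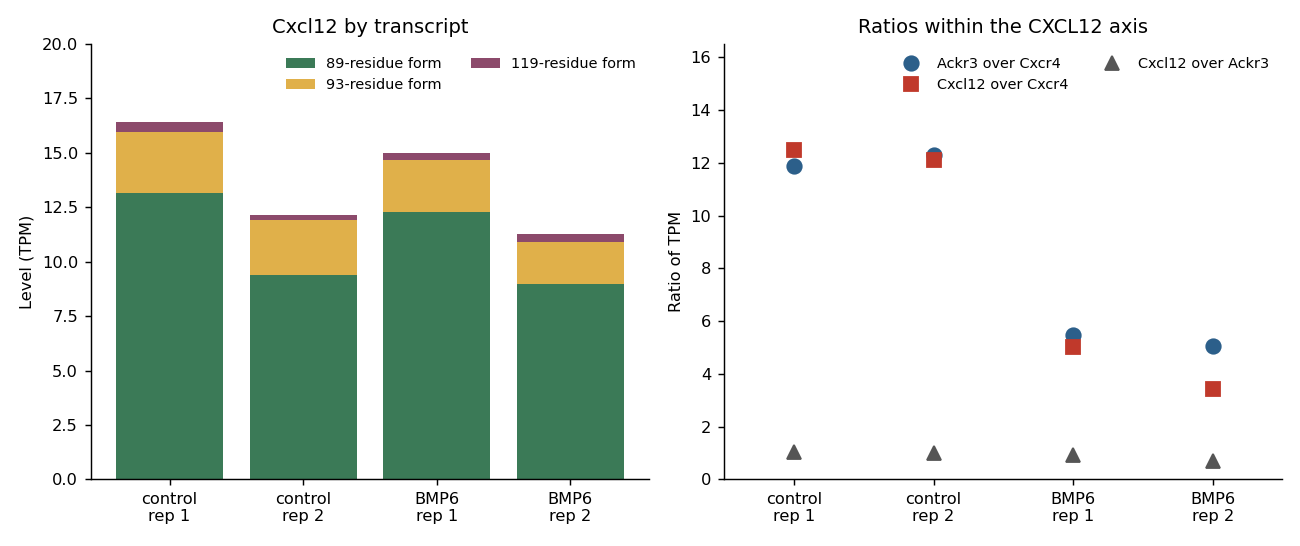
Left, level of Cxcl12 in TPM (stacked bars from 0) in each library, divided by the length of the protein each transcript codes for. Right, ratios of TPM within each library for Ackr3 over Cxcr4 (circles), Cxcl12 over Cxcr4 (squares) and Cxcl12 over Ackr3 (triangles), where the first was 11.9 and 12.3 in controls and 5.47 and 5.07 after BMP6.

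The ligands of monocytes, Ccl2 and Ccl7, are neighbors on chromosome 11, with starts 10.1 kb apart. Ccl2 was at 3.12 and 4.98 TPM after BMP6 and at 5.18 and 5.96 TPM in controls. The 2 BMP6 libraries were below both controls, although BMP6 replicate 2 came close to control replicate 1. The difference of -0.40 (-0.59 and -0.22 within pairs) was smaller than the gap of -0.54 between the BMP6 replicates, and it was -0.13 without BMP6 replicate 1. Ccl7 was at 3.45 and 4.51 TPM after BMP6 and at 3.68 and 3.93 TPM in controls, and the groups overlapped. Its difference of 0.04 was the smallest of the 10 in size, with -0.07 and 0.16 within pairs, and it was -0.11 without BMP6 replicate 2. The ratio of Ccl2 to Ccl7 was 0.904 and 1.10 after BMP6 and 1.41 and 1.52 in controls.

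Cxcl1 and Cxcl5, ligands of the neutrophil receptor CXCR2, lie in a chemokine cluster on chromosome 5. Cxcl1 was at 0.562 and 0.605 TPM after BMP6 and at 1.80 and 0.798 TPM in controls. Control libraries were the 2 highest, and control replicate 1 stood far above the other 3 libraries. The difference was -0.50, with -0.84 and -0.16 within pairs, and the controls differed from each other by 0.64. Without control replicate 1 the difference was -0.18. The values rested on 33.6 to 109.6 rebuilt reads.

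Cxcl5 was at 0.0883 and 0.0753 TPM after BMP6, at 0.516 TPM in control replicate 1 and listed at 0 in control replicate 2. The groups overlapped, and control replicate 1 was again the high library. The difference of -0.19 turned to 0.11 without control replicate 1 and to 0.73 with voom on rebuilt reads. At most 51.9 rebuilt reads lay behind a value of Cxcl5. The 12 leukocyte markers also summed highest in control replicate 1, to 2.94 TPM against 2.13 to 2.30 TPM in the other libraries, with Lyz2, a gene of granulocytes and macrophages, at 0.864 TPM against 0.100 to 0.195 TPM. The excess lay in Lyz2: without it the other 11 markers summed to 2.07 TPM in control replicate 1 and highest in BMP6 replicate 2. The neutrophil markers Ly6g and S100a8 were at 0 throughout, and the part of leukocytes in the Cxcl1 and Cxcl5 values was not tested. Gm72413 overlaps Cxcl5 on the other strand, and in these unstranded libraries reads of the pair cannot be told apart.

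Cx3cl1 encodes fractalkine, a chemokine anchored in the membrane by a stalk. It was at 0.520 and 0.432 TPM after BMP6 and at 0.584 and 0.610 TPM in controls. The controls were the higher 2 libraries, with a difference of -0.11 (-0.06 and -0.17 within pairs) against 0.09 between the BMP6 replicates. Cx3cl1 is overlapped by 1700121C10Rik on the other strand, so reads of this pair cannot be told apart.

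**Figure D3:**
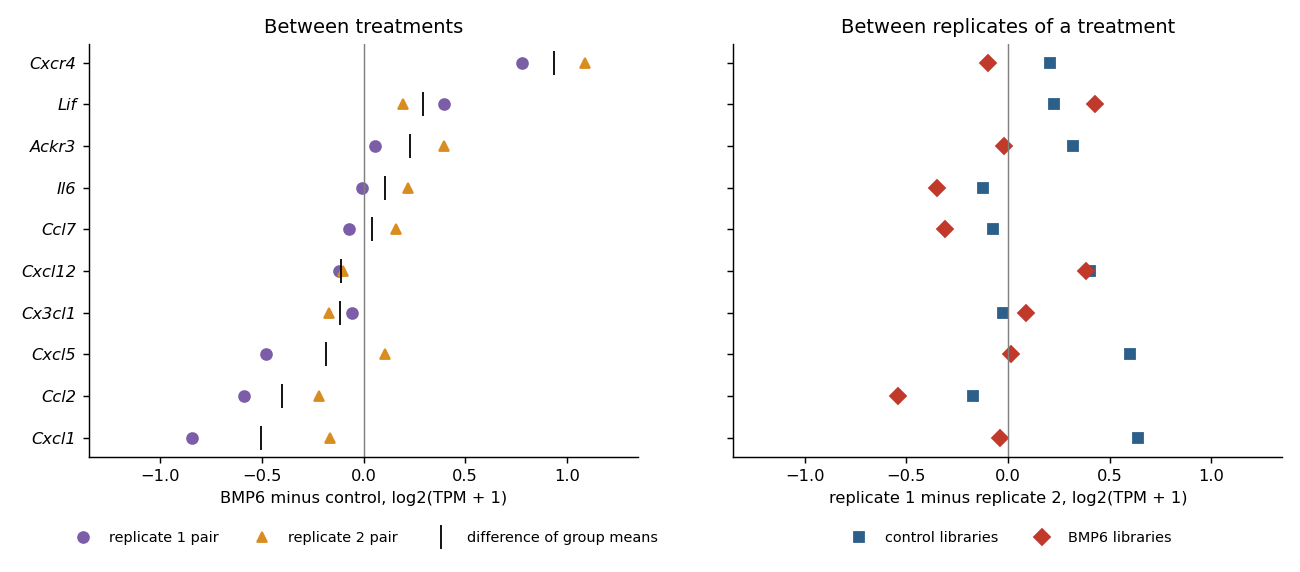
Differences on the log2(TPM + 1) scale for the 10 genes, ordered by the difference of group means. Left, BMP6 minus control within the replicate 1 pair (circles), within the replicate 2 pair (triangles) and between group means (bars). Right, replicate 1 minus replicate 2 within controls (squares) and within BMP6 libraries (diamonds). Cxcr4 has both within-pair values (0.78 and 1.09) beyond its replicate gaps (0.21 and -0.10), and Cxcl12 has larger replicate gaps than treatment differences.

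The cytokines Il6 and Lif were at low levels. Il6 was at 0.225 and 0.558 TPM after BMP6 and at 0.230 and 0.339 TPM in controls, on 21.5 to 53.5 rebuilt reads. The groups overlapped, and replicate 2 was higher in both. The difference of 0.11 (-0.01 and 0.22 within pairs) was -0.07 without BMP6 replicate 2. Il6 overlaps Gm42450 on the other strand, so its reads are uncertain in the same way. Lif was at 0.600 and 0.190 TPM after BMP6 and at 0.216 and 0.0406 TPM in controls, on 10.1 to 151.5 rebuilt reads. The groups overlapped, and replicate 1 was higher in both. The difference was 0.29, with 0.40 and 0.19 within pairs, and it was 0.08 without BMP6 replicate 1. Its size ranged up to 1.79 with voom on rebuilt reads.

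**Figure D4:**
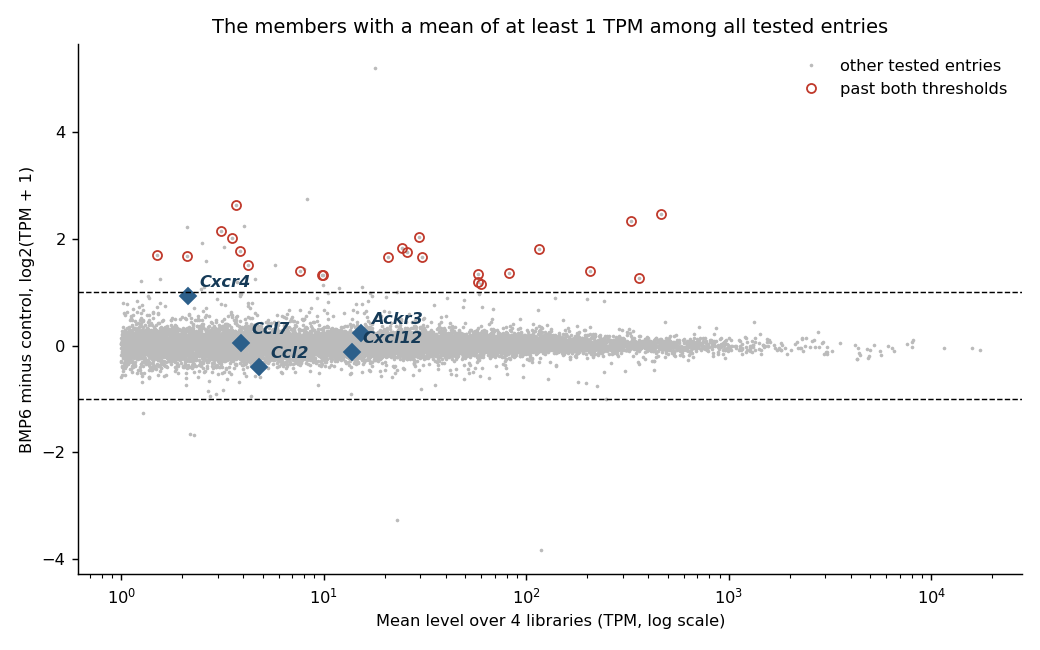
BMP6 minus control on the log2(TPM + 1) scale (vertical axis) against mean TPM over the 4 libraries (horizontal axis, log scale) for the 13128 tested entries (grey), with the 24 called entries as red circles and the 5 tested members as blue diamonds. Dashed lines mark a 2-fold change in TPM + 1 either way, and grey points beyond them missed the adjusted p or had a name left out of the calls. Cxcr4 at 0.94 lies just under the upper line, and the other 4 members lie between -0.40 and 0.23.

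The receptors for the ligands were compared with the ligands themselves. Of CXCL12 both receptors were present, at 1.01 to 3.27 TPM for Cxcr4 and 12.4 to 16.6 TPM for Ackr3. For the other chemokines the receptors were at or near 0. Ccr1, Ccr2 and Ccr3, receptors of CCL2 and CCL7, were listed at 0 in all 4 libraries, Cxcr2 reached at most 0.0144 TPM and Cx3cr1 at most 0.00742 TPM. Among the 21 other chemokine receptors, 20 had an entry of their own, 9 were listed at 0 in every library and none was a tested entry. The highest was Ackr1, which binds chemokines without signaling, at up to 0.490 TPM. Of the receptors for IL-6 and LIF, the shared subunit Il6st was at 20.4 and 26.1 TPM after BMP6 and at 21.0 and 19.5 TPM in controls. Il6ra, the subunit that binds IL-6, was at most 0.287 TPM.

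Other chemokine ligands were few. Of 32 in the list, 10 were listed at 0 in every library and 3 were tested. These were Ccl27a, a skin chemokine, at 9.09 to 12.5 TPM, Ccl25, a thymic and gut chemokine, at 7.98 to 10.7 TPM, and the interferon-induced Cxcl10 at 1.40 to 2.50 TPM. None of the 3 was called by limma or by voom, 0 had an unadjusted p under 0.05, and the adjusted p of each was 1.00. Their median difference was 0.13, against 0.02 over all tested entries. All 3 are uncertain, since 17 other genes hold near-identical copies of Ccl27a, Ccl25 shares 405 bases with Elavl1 and Cxcl10 shares 133 bases with Art3.

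Of 20 genes that carry or shape the CXCL12 signal, 8 were under a mean of 1 TPM and 12 were tested. Of these, 0 were called by limma or by voom, with 0 at an unadjusted p under 0.05 and a median difference of 0.12. Mif, a cytokine that also binds CXCR4, was at 2099 to 2469 TPM. The G protein subunit Gnb1 was at 313 to 403 TPM. Gnai2, the inhibitory alpha subunit, was at 139 and 274 TPM after BMP6 and at 253 and 301 TPM in controls, and BMP6 replicate 1 stood apart from the other 3 libraries. Mif and Gnai2 have near-identical copies in other genes. Among leukocyte-type transducers, Dock2 was listed at 0 in every library.

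Of the proteoglycans and heparan sulfate enzymes that hold chemokines at the cell surface, 13 of 14 were tested and 0 were called by limma or by voom, with 0 at an unadjusted p under 0.05 and a median difference of -0.02. The highest in controls were Ext2, a heparan sulfate polymerase, at 86.8 to 108.4 TPM, the glypican Gpc1 at 72.7 to 106.1 TPM and the syndecan Sdc2 at 63.3 to 78.5 TPM. For all 3 the groups overlapped.

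In the family of IL-6 and LIF, 8 of 14 ligands and receptors were tested and 0 were called by limma or by voom, with a median difference of 0.05. Among the most abundant were Clcf1, a cytokine of the family, at 79.0 to 83.9 TPM, and Il6st. At an unadjusted p under 0.05 there was 1 gene, Lifr, the receptor subunit that binds LIF, named after its values were seen. Lifr was at 3.60 and 5.09 TPM after BMP6 and at 2.57 and 3.08 TPM in controls. The BMP6 libraries were the higher 2, with a difference of 0.47 ± 0.19 (SE, limma adjusted p = 1.00), and the adjusted p was 0.151 with the replicate number as a block. Under voom with the block the difference was 0.66, with an adjusted p of 0.0198 and a fold change under 2. Part of Lifr is near-identical to 6 other genes.

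Downstream, 10 of 12 JAK-STAT genes were tested and 0 were called by limma or by voom, with a median difference of 0.02. Stat3, the main transcription factor of the pathway, was at 104 to 122 TPM, the kinase Jak1 at 40.7 to 45.2 TPM and the phosphatase Ptpn11 at 17.7 to 19.0 TPM. At an unadjusted p under 0.05 there was 1 gene, the feedback inhibitor Socs3, named after its values were seen. It was at 14.2 and 13.2 TPM after BMP6 and at 17.9 and 17.3 TPM in controls. Both BMP6 libraries were below both controls, with a difference of -0.34 ± 0.12 (SE, limma adjusted p = 1.00, and 0.157 with the replicate block).

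Of 20 other secreted cytokines, 5 were tested (Il1b, Il18, Il34, Csf1 and Il12a) and 0 were called by limma or by voom without a block, with 1 in each direction at an unadjusted p under 0.05 and a median difference of -0.13. Csf1, the growth factor of macrophages, was at 17.5 and 25.6 TPM after BMP6 and at 9.30 and 13.9 TPM in controls. Both BMP6 libraries were above both controls, and replicate 2 was higher in each group. The difference was 0.84 ± 0.24 (SE, limma adjusted p = 1.00), with 0.85 and 0.83 within pairs. With the replicate number as a block the adjusted p of Csf1 was 0.00187, and its fold change stayed under 2. The receptor of CSF1, Csf1r, was at most 0.177 TPM. The other cytokines high in controls were Il18, at 13.2 to 19.8 TPM, and Il34, a further ligand of Csf1r, at 3.69 to 5.21 TPM.

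Il12a, which encodes the p35 subunit of IL-12 and was named after its values were seen, was at 1.75 and 1.49 TPM after BMP6 and at 3.81 and 3.65 TPM in controls. Both BMP6 libraries were below both controls. The difference was -0.85 ± 0.15 (SE, limma adjusted p = 0.294), with -0.81 and -0.90 within pairs. The ratio of group means in TPM was 0.434. With the replicate block the adjusted p was 0.0132 at the same difference, and voom with the block called Il12a lower, at -1.20 with an adjusted p of 0.0212. A stretch of 100 bases of Il12a is identical to Gm66274. Over all 7 lists, 51 of 133 genes were tested and 0 were called, and 2 (Csf1 and Il12a) passed the adjusted p with the block. The share of all tested entries that passed it without the fold change is not given here, so nothing is read from the count of 2. Apart from Gnb1 and Ext2, each list gene given as tested and named with its level shares a near-identical stretch with at least 1 other gene, Stat3 with the most (284 genes), and its level is uncertain to that extent.

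**Figure D5:**
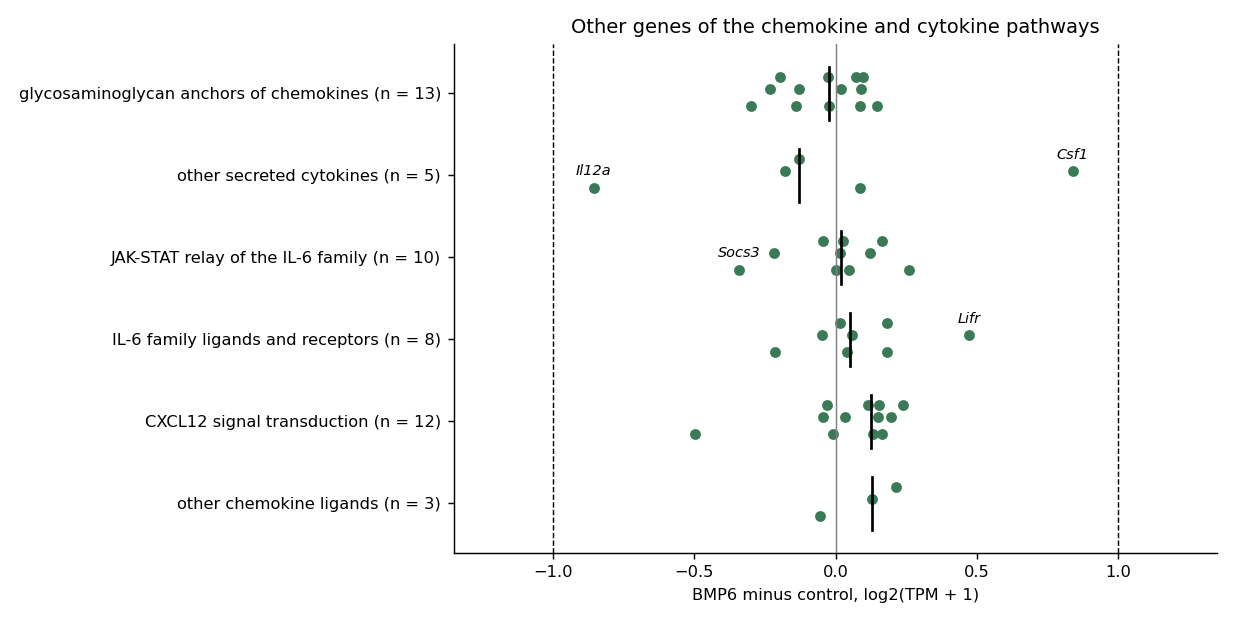
BMP6 minus control on the log2(TPM + 1) scale for each tested gene (points) of the 6 lists that had any, with the list median as a vertical bar and n the number of tested genes. Dashed lines mark a 2-fold change in TPM + 1 either way. No point passes a dashed line, and Csf1 (0.84) and Il12a (-0.85) lie farthest from 0. In TPM without the added 1, the ratio of group means was 1.85 for Csf1 and 0.434 for Il12a, the latter beyond 2-fold.

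The genes whose pattern over the 4 libraries was most like that of Cxcr4 were found by the root mean square of the difference between centered log2(TPM + 1) values, over 10644 named tested entries. They were Spry2, an inhibitor of receptor tyrosine kinase signaling, at 0.0482, Spsb1, an adaptor of a ubiquitin ligase, at 0.0511, Tmem119, a membrane protein, at 0.0754, Fam78a at 0.0781 and Enc1, an actin-binding protein, at 0.102. Spry2 was at 53.1 and 52.6 TPM after BMP6 and at 30.7 and 25.8 TPM in controls. Spsb1 was at 31.1 and 30.7 TPM after BMP6 and at 16.4 and 13.8 TPM in controls. The 5 genes were selected on this likeness, so their shared order of libraries is no further result. The measure rests on 4 libraries and on the log2(TPM + 1) scale, on which the Cxcr4 difference depends.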

How the data were processed

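PolyA RNA of 4 MuSC cultures was turned into unstranded, amplified full-length cDNA libraries without molecular identifiers and read as 100-base pairs. The authors aligned reads with STAR (2.7.11a) to GRCm39, assembled and merged transcripts with StringTie (2.2.1), run with its multi-mapping correction off, and sorted alignments with SAMtools (1.17), per the labels and the study's methods. The authors deposited TPM per gene, scaled so that all libraries have the same sum, and FPKM per gene. The deposited coverage signal is the mean depth of aligned bases, not scaled to library size, and the transcript files repeat TPM, FPKM and coverage as other attribute text. The files hold no counts. Read numbers were rebuilt as coverage times length over 100 bases, count both ends of a pair and are not independent molecules.

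The 10 genes and the 7 gene lists were chosen with earlier results of these data known. Groups and replicate numbers came from the sample labels. The lists were tested with limma (3.58.1, R 4.3.3) on log2(TPM + 1), with a mean-variance trend, two-sided and without a block. Adjustment was by Benjamini-Hochberg over the 13128 entries with a mean of at least 1 TPM. Calls needed a 2-fold difference in TPM + 1 either way (fold change of 2 or more, or 0.5 or less) at an adjusted p under 0.1. As in the study, unnamed entries and names such as Gm or Rik genes (2483 entries) stayed in the fit but were not called. The steps were tested on simulated data.

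Named were the 10 genes, the called genes of each list and any with a log2 difference of at least 1, the 3 with the highest control mean in each list, the top marker of each cell type and the 5 genes most like Cxcr4. Other names, and the individual markers, receptors and cluster neighbors, were chosen after their values were seen. Replicate numbers stand for batches in the labels, and each batch has 1 library of either treatment, so the libraries are paired by number. Within a pair, deviations from the group means correlated across genes (0.563), and the first principal component (54.3% of the variance) separated the numbers. With 2 libraries a group, p-values measure the spread between these samples, and no permutation over the 4 libraries can give a p under 0.333. Alternatives were other pseudocounts (0.1 and 5), filters, scalings and thresholds, FPKM, voom on rebuilt reads, the replicate block and leaving out each library. Near-identical copies were stretches of at least 100 bases with at least 95% identity to another gene, by BLAST (2.17.0). Ccr9 shares an entry with another gene and was not analysed here, and some genes that the naming rule selects are not reported here.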

Additional observations from a re-analysis of the deposited data

How the results depend on the processing

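Among all tested entries, 24 were called higher and 0 lower. The number called higher was 15 with a pseudocount of 5, 1 with no filter on low values, 15 with a mean of at least 5 TPM, 12 without the mean-variance trend, 11 at an adjusted p under 0.05 and 56 with voom when it carried the block. With the replicate block in limma, which pairs libraries by number, 36 were called higher and 1 lower. The number called lower was 6 with voom and the block. When each library was left out in turn, 17 (without control replicate 1) to 30 (without BMP6 replicate 1) were called higher and 1 to 7 lower, the most without BMP6 replicate 2. The lone library was then assumed to vary like the other group. Of the other alternatives, none moved either number beyond 1.5 times. The list counts were 0 in 209 of 210 cases, and the exception was the 1 cytokine called lower with voom and the block (Il12a). Some of these cases could only give 0. The list of other chemokine receptors had 0 tested entries unless the filter was dropped, and a stricter adjusted p cannot add a call.

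The Cxcr4 difference of 0.94 kept its direction in 9 of 9 alternatives. It was 1.36 with a pseudocount of 0.1, 0.40 with a pseudocount of 5, 0.70 on log2(FPKM + 1) and 1.42 with voom, and 0.83 to 1.04 when a library was left out. Ackr3, Cxcl1, Ccl2, Cx3cl1 and Lif also kept their directions in 9 of 9, whereas Cxcl12, Cxcl5, Ccl7 and Il6 did not. Cxcl12 kept its direction in 7 of 9 and turned only without BMP6 replicate 2 or control replicate 1. Leaving out a library breaks a pair, so the difference then also carries the gap between replicate numbers. The cause of the other shifts was not tested. The replicate block leaves a member's difference as it is, since each pair has both treatments. Of the 10 genes, 5 lay under 1 TPM, where depth limits what can be seen.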

Other observations

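The neighbors of the chemokine genes in their clusters were mostly near or at 0. On chromosome 11, Ccl8, a ligand of monocyte receptors that starts 79.6 kb from the start of Ccl2, was at 0.757 and 1.33 TPM after BMP6 and at 0.742 and 0.313 TPM in controls. Both BMP6 libraries were above both controls, the lower of them by a small margin. Ccl11, the eosinophil chemokine that starts 22.3 kb from the start of Ccl2, was at 0.554 and 0.613 TPM after BMP6 and at 0.896 and 0.283 TPM in controls, and the groups overlapped. Ccl12 and Ccl1, in the same cluster, were listed at 0 in all 4 libraries. On chromosome 5, Ppbp and Cxcl15 were listed at 0 in all 4 libraries, Cxcl3 reached 0.0314 TPM and Cxcl2, which starts 12.6 kb from the start of Cxcl1, reached 0.108 TPM. Pf4, the platelet chemokine, was at 0.312 and 0.0566 TPM after BMP6 and listed at 0 in both controls.

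In the deposited transcript values, Il6 was assigned mostly to transcripts other than the one that codes for the full 211 residues. These shares are uncertain. They rest on 21.5 to 53.5 rebuilt reads in a library, split among overlapping transcripts, and Gm42450 overlaps Il6 on the other strand. The 211-residue transcript was listed at 0 in both BMP6 libraries and took 9.96% and 6.09% of Il6 TPM in control replicates 1 and 2. A transcript coding for 194 residues took 43.3% to 68.2%, and one coding for 208 residues took 25.7% to 56.7%.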
